A study of Mus musculus with 12 samples.

Results

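The genes described here are 10 components of insulin-like growth factor (IGF) signalling in the mouse heart: the ligand gene Igf1, the receptor genes Igf1r and Insr, the adaptor genes Irs1 and Irs2, and the binding protein genes Igfbp2, Igfbp3, Igfbp4, Igfbp5 and Igfbp7. They were matched by gene symbol, and each symbol matched 1 of the 56748 genes in the deposited table. All 10 also passed the filter on low values, which left 13537 genes for testing. RNA was sequenced from whole mouse heart in 12 libraries, 3 in each of 4 groups: Csrp3 KO at P21, wild type (WT) at P21, Csrp3 KO at P1 and WT at P1, where P21 and P1 are postnatal days 21 and 1. Csrp3 encodes muscle LIM protein of the cardiac sarcomere. The labels give no strain, sex or litter and do not describe the deleted part of Csrp3. They also leave unsaid whether separate animals were used within a group, and the p-values cover no more than the variation among these libraries, some of which may be technical.

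Igf1 is a secreted peptide hormone made in the liver and in many other tissues, and it signals mainly through Igf1r, a tyrosine kinase of the cell surface closely related to the insulin receptor Insr. The activated receptors phosphorylate the docking proteins Irs1 and Irs2, which pass the signal to phosphoinositide 3-kinase, Akt and mTOR, a route that promotes growth of heart muscle. IGF binding proteins are secreted proteins that hold IGFs outside the cell, prolonging their life or keeping them from the receptor. Igfbp7 is a more distant relative that binds IGFs weakly, and it is known as a secreted product of vascular cells.

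The libraries held 9.67 to 15.9 M (megareads) in genes. FPKM, the unit of the deposited values, is fragments per kilobase of gene scaled to the depth of the library, so levels can be compared between genes, whereas differences between libraries depend on the scaling described below. WT P21 libraries 1 and 2 stood apart from the others: their library names end in R, they held 10.2 and 9.67 M, and they had 17344 and 15811 genes above 0, against 18348 to 20208 in the other P21 libraries and 21012 to 22353 at P1. KO P21 library 2 came nearest to them, at 10.8 M and 18348 genes, while the remaining P21 libraries held 13.1 to 15.1 M. Each member's difference between KO and WT at P21 is therefore given below without WT P21 libraries 1 and 2 as well. The same holds for each member's age change in WT. Leaving both out makes WT P21 library 3 a lone sample that is assumed to vary like the other groups. Csrp3 RNA was present in every library labelled KO, at 671, 1112 and 926 FPKM in KO P21 libraries 1, 2 and 3, against 1068, 1397 and 572 FPKM in WT P21 libraries. At P1 it was 168, 94.3 and 147 FPKM in KO libraries and 183, 179 and 238 FPKM in WT libraries. The Csrp3 values thus overlapped between genotypes at P21 and were lower in KO at P1 without passing the test, so "KO" is used here as the label of a library.

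More of these genes were called with age than with genotype. The levels of 6 of 10 were called lower at P21 than at P1 in WT hearts and 1 of 10 was called higher, at an adjusted p under 0.05 in limma, where 44.9% of all genes tested were called, 23.3% lower and 21.5% higher. In KO hearts 5 were called lower and 1 higher, where 25.0% of all genes were called, 13.2% lower and 11.8% higher. The age differences in KO and in WT come from separate libraries, and 6 genes were called in both: Igf1r, Irs1, Irs2, Igfbp2 and Igfbp5, all lower at P21, and Igfbp7, higher at P21. Irs1 and Igfbp2 are among them, and these passed the filter on low values only through their P1 libraries, so their fall cannot be read as support. When any 1 of the 6 KO libraries was left out, 2 or 3 of the 10 genes were called in KO, and in KO as in WT 3 were called when only the 6 members with an FPKM of at least 5 in 3 libraries were tested. The P21 and P1 libraries of a gene did not overlap for 7 of 10 genes in KO, where 47.4% of all genes did not, and for 7 of 10 in WT, where 51.9% did not. The median log2 change of the 10 genes with age was -0.64 in KO, beside -0.02 over all genes tested, and -1.14 in WT, beside -0.04. Neither value depends on the floor used for Igfbp2, the lowest of the 10, but both include Irs1 and Igfbp2. The part of Irs1 and Igfbp2 in these medians, and in the counts above, cannot be read as support. Unless an alternative is named, log2 changes are of FPKM + 0.5, a scale on which changes of weakly expressed genes look smaller than they are.

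**Figure D1:**
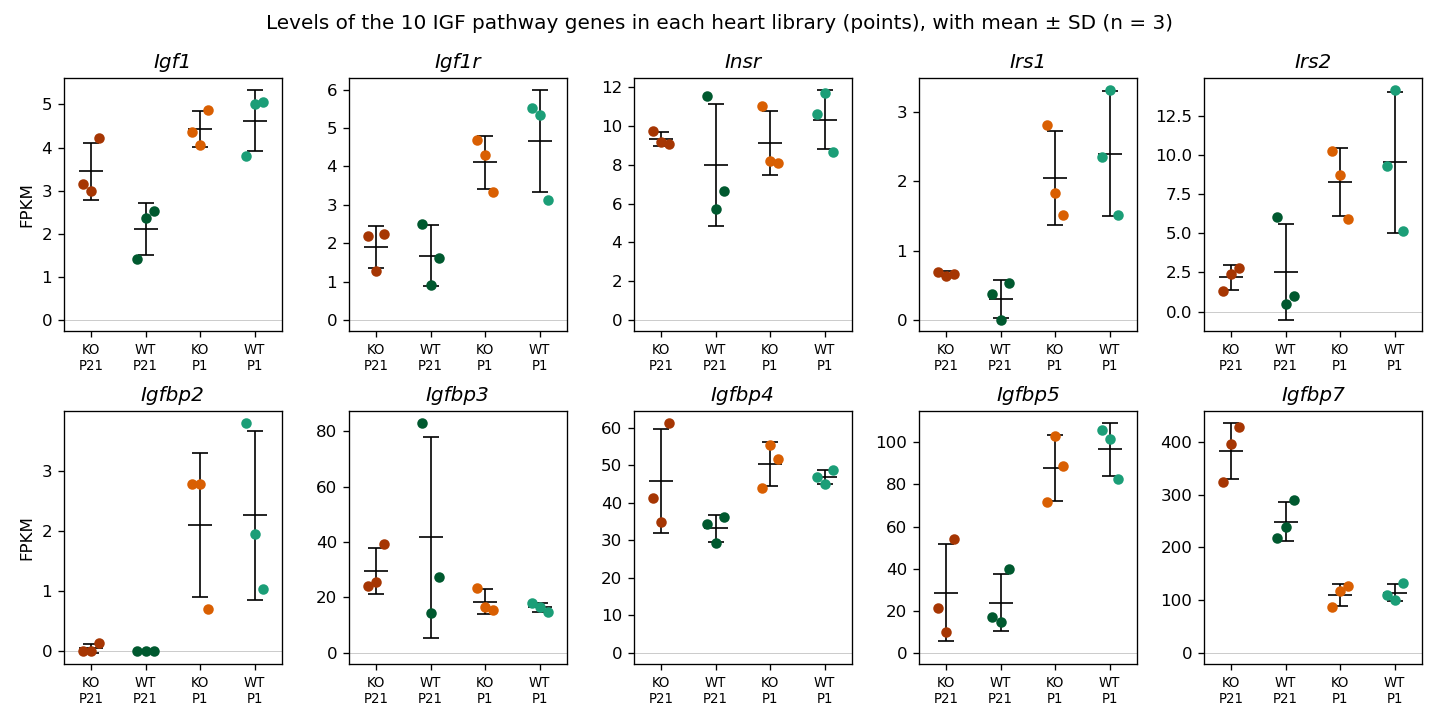
Level in FPKM of each of the 10 genes (vertical axis, linear, with its own range in each panel) in each library (points) of the 4 groups, with the mean and SD of 3 libraries per group. Igf1r, Irs1, Igfbp2 and Igfbp5 lie lower and Igfbp7 higher at P21 than at P1 in both genotypes with no overlap, while the Igfbp3, Irs2 and Insr values of WT P21 library 1 lie far above those of the other WT P21 libraries.

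The ligand gene Igf1 had a level of 3.16, 2.99 and 4.21 FPKM in KO P21 libraries, against 4.37, 4.06 and 4.88 FPKM in KO P1 libraries. In WT it had 1.41, 2.37 and 2.53 FPKM at P21, against 3.81, 5.01 and 5.07 FPKM at P1. All WT P21 values lay below all WT P1 values, whereas the KO values of the 2 ages overlapped. The log2 change with age was -0.33 in KO (SE 0.21, adjusted p = 0.283) and -0.999 in WT (SE 0.21, adjusted p = 0.00324). Without WT P21 libraries 1 and 2 the WT change was -0.75 (adjusted p = 0.0477), and after rescaling to TPM, described below, the KO change was -0.99 and called (adjusted p = 0.0291). As deposited, the age change of Igf1 passed the threshold in WT and not in KO, but the difference between them was 0.67 (SE 0.30, adjusted p = 0.687) and did not pass the test. Whole-heart RNA does not separate fewer cells of a type from less RNA per cell, for Igf1 or for any gene below.

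The receptor gene Igf1r fell with age in both genotypes. It had 2.19, 1.26 and 2.24 FPKM in KO P21 libraries, against 4.69, 4.29 and 3.33 FPKM in KO P1 libraries. The WT values were 2.50, 0.896 and 1.62 FPKM at P21, against 5.51, 5.34 and 3.13 FPKM at P1. In both genotypes every P21 value lay below every P1 value. The log2 change was -0.96 in KO (SE 0.31, adjusted p = 0.0399) and -1.28 in WT (SE 0.31, adjusted p = 0.00621), and in WT it was -1.24 (adjusted p = 0.0317) without WT P21 libraries 1 and 2. The KO call did not hold when any 1 of the 6 KO libraries was left out (adjusted p = 0.0536 to 0.139), nor without WT P1 library 1 or 2 (adjusted p = 0.0525 and 0.0547).

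Insr, the insulin receptor gene, did not pass the test in either genotype as deposited. Its level was 9.72, 9.16 and 9.06 FPKM in KO P21 libraries, against 11.04, 8.20 and 8.10 FPKM in KO P1 libraries. In WT it was 11.6, 5.74 and 6.65 FPKM at P21, against 10.6, 11.7 and 8.68 FPKM at P1. The ages overlapped in both genotypes, and WT P21 library 1 alone lay in the P1 range. The log2 change was 0.04 in KO (adjusted p = 0.916), turning to -0.61 and -0.42 under the rescalings described below, and -0.40 in WT (adjusted p = 0.180). In WT it was -0.59 (adjusted p = 0.0890) without WT P21 libraries 1 and 2, and it was called lower without WT P21 library 1 alone (-0.69, adjusted p = 0.0147). Within each library, the ratio of Insr to Igf1r does not depend on scaling. That ratio was 4.06 to 7.26 in KO P21 libraries and 1.91 to 2.43 in KO P1 libraries, and it was 4.10 to 6.40 in WT P21 libraries and 1.93 to 2.78 in WT P1 libraries. The P21 ratios were thus above all P1 ratios, in KO and in WT alike.

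The adaptor genes Irs1 and Irs2 fell with age in both genotypes. They are the members whose 250 bases before the gene start, in the RefSeq table of mouse promoters (GRCm38.p6), held both of a pair of short motifs that were searched after the values were seen, and the sequences are shown for that reason. The first motif is TGTTTTG, the core of the insulin response element that forkhead factors bind and that is known from the Irs2 promoter, and the second is CACGTG, the E-box bound by basic helix-loop-helix factors. Capitals mark the motifs on the gene's strand, and both strands were searched. The window of Irs1 is chr1:82291440-82291689 (minus strand) and that of Irs2 is chr8:11008930-11009179 (minus strand).
Irs1: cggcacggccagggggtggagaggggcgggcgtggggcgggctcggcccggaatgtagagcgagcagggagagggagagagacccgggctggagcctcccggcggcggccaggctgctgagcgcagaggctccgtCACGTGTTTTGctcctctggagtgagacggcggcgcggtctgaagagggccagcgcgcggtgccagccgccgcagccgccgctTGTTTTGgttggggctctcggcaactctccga
Irs2: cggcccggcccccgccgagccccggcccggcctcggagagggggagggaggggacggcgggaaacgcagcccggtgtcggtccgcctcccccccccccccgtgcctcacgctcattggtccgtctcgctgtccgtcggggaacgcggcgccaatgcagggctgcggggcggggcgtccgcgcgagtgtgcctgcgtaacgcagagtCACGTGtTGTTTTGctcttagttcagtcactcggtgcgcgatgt

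TGTTTTG began 111 and 32 bases before the start of Irs1 and 37 bases before that of Irs2. CACGTG began 115 bases before the start of Irs1, where it shares letters with the first TGTTTTG, and 44 bases before that of Irs2. Of 32851 promoter windows of this length, 5.56% held TGTTTTG, 6.02% held CACGTG and 0.295% held both. Among the members, 9 matched an entry of the table, and Igfbp2 was the other member with CACGTG. These matches describe letters in a window and not binding.

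Irs1 had 0.698, 0.632 and 0.669 FPKM in KO P21 libraries, against 2.82, 1.83 and 1.51 FPKM in KO P1 libraries. The WT libraries had 0.367, 0 and 0.532 FPKM at P21, against 2.36, 3.32 and 1.52 FPKM at P1. Neither genotype showed any overlap between the ages, and WT P21 library 2 held 0 Irs1 reads. The log2 change was -1.10 in KO (SE 0.32, adjusted p = 0.0288) and -1.87 in WT (SE 0.32, adjusted p = 0.00107), and in WT it was -1.44 (adjusted p = 0.0230) without WT P21 libraries 1 and 2. In KO the call was lost without KO P1 library 1 or 2 or any 1 of the KO P21 libraries (adjusted p = 0.0628 to 0.106), with a pseudocount of 0.1 (adjusted p = 0.103) and with voom on the recovered reads (adjusted p = 0.0598). All Irs1 values at P21 lay below the filter's FPKM of 1.

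Irs2 was the adaptor gene with the higher level, at 1.32, 2.42 and 2.80 FPKM in KO P21 libraries, against 10.2, 8.76 and 5.94 FPKM in KO P1 libraries. Its WT level was 6.06, 0.514 and 1.02 FPKM at P21, against 9.33, 14.2 and 5.16 FPKM at P1. The KO ages did not overlap, while WT P21 library 1 lay above WT P1 library 3. The log2 change was -1.73 in KO (SE 0.59, adjusted p = 0.0498) and -2.11 in WT (SE 0.59, adjusted p = 0.0129). Without WT P21 libraries 1 and 2 the WT change was -2.62 (adjusted p = 0.00664). In WT the call was kept in 22 of 25 alternatives, and the adjusted p was 0.0571 without WT P1 library 2, 0.0505 without WT P21 library 2 and 0.0552 with only the WT groups in the fit. In KO the call was kept in 12 of 25 alternatives. There the adjusted p was 0.0526 to 0.154 when any 1 library other than the WT P21 ones was left out, 0.0546 without the trend, 0.0582 with a replicate block, 0.0664 with a pseudocount of 0.1 and 0.0805 with no filter. Within libraries, Irs2 was 1.89, 3.83 and 4.19 times Irs1 in KO P21 libraries, against 3.64, 4.79 and 3.92 times in KO P1 libraries, so these ratios overlapped between the ages. In WT they were 16.5 and 1.91 times in P21 libraries 1 and 3, with no ratio in library 2, against 3.96, 4.28 and 3.41 times in P1 libraries.

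Among the binding protein genes, Igfbp2 was close to absent at P21. Igfbp2 promotes or restrains IGF action depending on the tissue. It had 0, 0 and 0.131 FPKM in KO P21 libraries, the last from 3 reads, against 2.79, 2.78 and 0.707 FPKM in KO P1 libraries. In WT it had 0 reads in all 3 libraries at P21, against 3.80, 1.94 and 1.03 FPKM at P1. The pooled level was 42.3-fold lower at P21 in KO (95% Poisson interval 14.3 to 207, from 3 reads at P21 and 186 at P1). In WT it was 37.8-fold lower if the count of 0 at P21 is replaced by 3 reads over the group. The 95% Poisson upper limit in WT P21 was 0.0741 FPKM, above the 0.0603 FPKM of those 3 reads, so the WT fold may be smaller. The KO interval covers counting error only, and the WT value leaves out the counting error at P1. The fitted log2 changes of -2.12 in KO (adjusted p = 0.00516) and -2.34 in WT (adjusted p = 0.00172; 0.0295 without WT P21 libraries 1 and 2) depend on the pseudocount. Igfbp2 passed the filter on low values through its P1 libraries.

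Igfbp5, the most conserved member of the IGF binding proteins, also fell with age. It had 21.2, 10.02 and 54.3 FPKM in KO P21 libraries, against 71.6, 103 and 88.9 FPKM in KO P1 libraries. WT libraries held 17.1, 14.9 and 39.6 FPKM at P21, against 106, 102 and 82.5 FPKM at P1. The ages did not overlap in either genotype, although library 3 of each P21 group stood well above the other libraries of its group. The log2 change was -1.91 in KO (SE 0.51, adjusted p = 0.0186) and -2.13 in WT (SE 0.51, adjusted p = 0.00636). Without WT P21 libraries 1 and 2 the WT change was -1.27 and no longer passed (adjusted p = 0.200). The KO call was lost without KO P1 library 2 or 3 or KO P21 library 1 or 2 (adjusted p = 0.0551 to 0.0681). In the deposited table Igfbp2 lies on chromosome 1 at 72863662 to 72891633 on the plus strand and Igfbp5 at 72897091 to 72914043 on the minus strand, so the 2 genes that fell lie side by side with their ends facing each other (no build is stated for these coordinates in the sources used here).

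Igfbp7 was the member with the highest mean level in every group and the one called higher at P21. It had 325, 396 and 428 FPKM in KO P21 libraries, against 86.3, 117 and 126 FPKM in KO P1 libraries. WT hearts had 218, 238 and 290 FPKM at P21, against 110, 101 and 132 FPKM at P1. The ages were far apart in both genotypes, with the KO P21 values above the WT P21 values. The log2 change was 1.81 in KO (SE 0.24, adjusted p = 0.000424), a call kept in 25 of 25 alternatives. In WT it was 1.12 (SE 0.24, adjusted p = 0.00357), and 1.35 (adjusted p = 0.0118) without WT P21 libraries 1 and 2, but under the 3 rescalings described below it was -0.03 to 0.11 and not called.

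Igfbp3 and Igfbp4 did not pass the test with age in either genotype as deposited, and in WT both passed it in some alternatives. Igfbp3, the main IGF carrier of the blood, had 24.2, 25.5 and 39.2 FPKM in KO P21 libraries, against 23.5, 16.7 and 15.4 FPKM in KO P1 libraries. The WT levels were 83.0, 14.4 and 27.5 FPKM at P21, against 18.2, 16.4 and 14.9 FPKM at P1. WT P21 library 1 held the highest Igfbp3 value of all 12 libraries and WT P21 library 2 the lowest. The log2 change of Igfbp3 was 0.65 in KO (SE 0.48, adjusted p = 0.348) and 0.95 in WT (SE 0.48, adjusted p = 0.125), and it turned to -0.00 in KO and to -0.17 in WT when the values were rescaled to TPM. The WT change was 0.73 (adjusted p = 0.118) without WT P21 libraries 1 and 2, but it was called without WT P21 library 2 alone (1.52, adjusted p = 0.0128) and with library weights (1.27, adjusted p = 0.0286).

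Igfbp4, which inhibits IGF action and is cleaved by the protease Pappa, had 41.1, 35.0 and 61.2 FPKM in KO P21 libraries, against 43.9, 55.3 and 51.5 FPKM in KO P1 libraries. In WT it had 34.2, 29.2 and 36.1 FPKM at P21, against 46.8, 45.0 and 48.6 FPKM at P1. The WT values were lower at P21 without overlap, and the KO values overlapped. The log2 change of Igfbp4 was -0.17 in KO (SE 0.21, adjusted p = 0.609) and -0.50 in WT (SE 0.21, adjusted p = 0.0763). In WT it was -0.37 (adjusted p = 0.382) without WT P21 libraries 1 and 2. It was called in WT under the 3 rescalings described below (-0.95 to -1.64, adjusted p = 0.00135 to 0.0111) and without KO P21 library 3 (adjusted p = 0.0409).

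**Figure D2:**
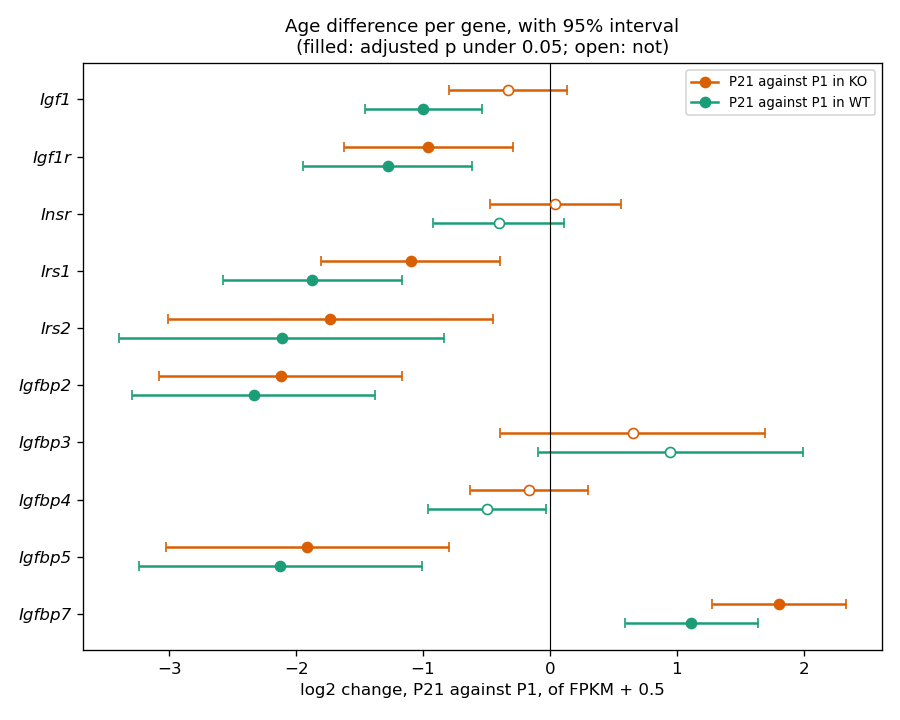
Log2 change of FPKM + 0.5 at P21 against P1 (horizontal axis) for each of the 10 genes, in KO (upper marker of each pair) and WT (lower marker), with 95% intervals from limma and filled markers for an adjusted p under 0.05. The intervals of Igf1r, Irs1, Irs2, Igfbp2 and Igfbp5 lie below 0 in both genotypes and those of Igfbp7 above 0, at 1.81 in KO and 1.12 in WT.

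The order of the levels changed with age among the binding proteins. At P1 the order of mean levels in both genotypes was Igfbp7, Igfbp5, Igfbp4, Igfbp3 and Insr. The libraries of Igfbp7 and Igfbp5 overlapped there, as did those of Insr and Irs2, whereas Igfbp5, Igfbp4 and Igfbp3 were each separated from the next gene in the order. At P21 Igfbp7 stood apart at the top in both genotypes, with means of 383 ± 52.8 FPKM in KO and 249 ± 37.0 FPKM in WT (SD, n = 3 each), and Igfbp3, Igfbp4 and Igfbp5 overlapped below it. Igf1 stood apart from its neighbours in KO at P21, below Insr and above Irs2, whereas in WT at P21 Insr, Irs2, Igf1 and Igf1r formed a chain of overlapping levels.

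Shares of the summed FPKM of the 5 binding protein genes do not depend on how a library was scaled. Igfbp7 made up 79.1% ± 5.74 of that sum in KO P21 libraries, against 40.7% ± 3.54 in KO P1 libraries, and 72.0% ± 9.34 in WT P21 libraries, against 41.3% ± 5.23 in WT P1 libraries (SD, n = 3 each). Igfbp5 made up 5.54% ± 3.60 in KO P21 libraries, against 32.6% ± 2.02 in KO P1 libraries, and 6.66% ± 2.97 in WT P21 libraries, against 35.0% ± 4.75 in WT P1 libraries. In both genotypes every P21 library had a larger Igfbp7 share and a smaller Igfbp5 share than every P1 library. The ratio of Igfbp7 to Igfbp5 within a library was 7.88 to 39.5 in KO P21 libraries, against 1.14 to 1.42 in KO P1 libraries, and 7.31 to 16.0 in WT P21 libraries, against 0.990 to 1.60 in WT P1 libraries. WT P21 library 3, which is not one of the 2 libraries that stood apart, had the lowest of these P21 ratios at 7.31. A share shows unequal change of the genes and not which of them changed.

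**Figure D3:**
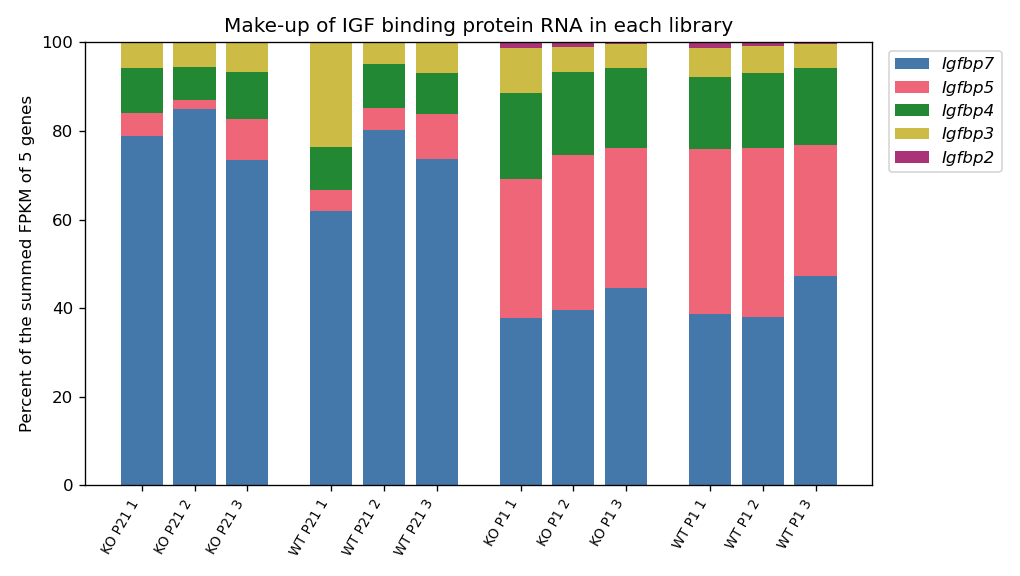
Share in percent of the summed FPKM of Igfbp2, Igfbp3, Igfbp4, Igfbp5 and Igfbp7 (stacked, vertical axis from 0 to 100) in each of the 12 libraries. Igfbp7 takes 61.9 to 84.9% at P21, against 37.8 to 47.3% at P1, and the Igfbp3 segment of WT P21 library 1, at 23.6%, is the largest of that gene.

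How far the age differences depend on scaling was examined because the deposited FPKM summed to 444792 to 944747 per library at P21, against 296719 to 346707 at P1. As deposited, the median change of all genes with age was -0.02 in KO and -0.04 in WT. Rescaling every library to the same sum (TPM) moved it to -0.65 in KO and -1.09 in WT. Rescaling without mitochondrial genes and the 20 most abundant of all genes moved it to -0.46 and -0.90. Under TPM 655 genes were called higher and 5310 lower in KO, beside 1599 and 1789 as deposited, and 791 were called higher and 9541 lower in WT, beside 2917 and 3160. Relative to these medians, Igfbp7 was 1.78 above in KO and 1.06 above in WT under TPM, beside 1.82 and 1.15 as deposited. Under quantile normalization it was 1.27 above the median in KO and 0.14 above it in WT. On the rescaled values themselves Igfbp7 was higher at P21 in KO (1.14, adjusted p = 0.0117) and not called in WT (-0.03, adjusted p = 0.944), and quantile normalization gave 1.25 in KO (adjusted p = 0.0156) and 0.11 in WT (adjusted p = 0.805). The 5 genes called lower in both genotypes were called lower under each of these 3 rescalings as well. Relative to the median of all genes under TPM, they lay between -1.02 and -2.68 in KO and between -1.32 and -2.68 in WT. Igfbp2 set the lower end in both genotypes. As deposited, Irs1 and Igfbp2 passed the filter on low values only through their P1 libraries, so their part in this cannot be read as support. Insr and Igfbp4 became called lower in WT under TPM, at -1.53 and -1.64, where the median of all genes was -1.09. Igf1 became called lower in KO under TPM, at -0.99 (adjusted p = 0.0291), where that median was -0.65.

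**Figure D4:**
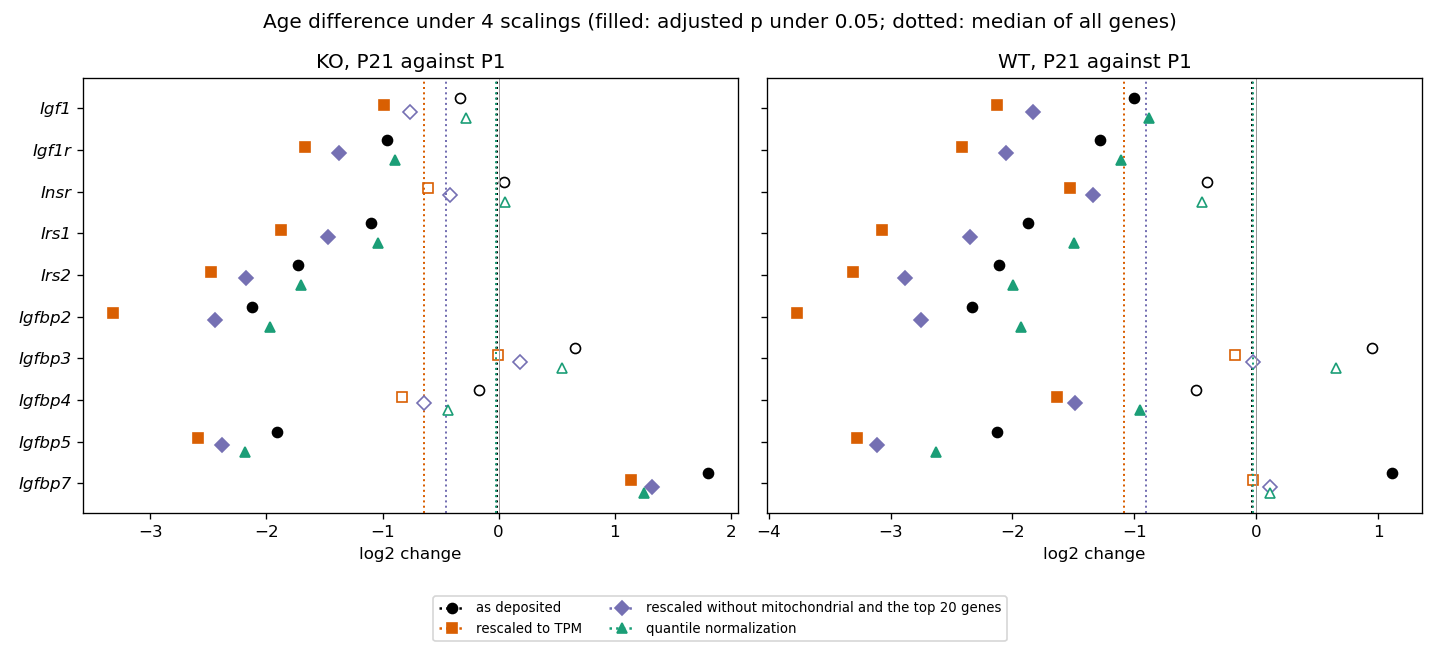
Log2 change at P21 against P1 (horizontal axis) of each gene under 4 scalings (marker shapes), in KO (left) and WT (right), with filled markers for an adjusted p under 0.05 and dotted lines for the median of all genes under each scaling. Igfbp7 lies above the medians in both panels, but in WT its marker lies between -0.03 and 0.11 under the 3 rescalings, 0.14 above the median under quantile normalization.

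Genotype, as the libraries are labelled, was compared next. At P21, 0 of 10 members were called between KO and WT, where 0.0665% of all genes (9 genes) were called. The number of genes called was 4 without WT P21 library 2 and 1814 without WT P21 library 3, with 0 members among them either time. At an unadjusted p under 0.05 there were 2 of 10, where the share of all genes was 13.8%. The log2 differences ran from -0.15 to 0.62 and 9 of 10 were above 0, with a median of 0.27 beside 0.00 over all genes. In 3 of 10 genes, Igf1, Irs1 and Igfbp7, every KO P21 library lay above every WT P21 library, where 6.90% of all genes did so.

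Igf1 was one of them, at 3.16, 2.99 and 4.21 FPKM in KO P21 libraries, against 1.41, 2.37 and 2.53 FPKM in WT P21 libraries. The difference was 0.62 (SE 0.21, 95% interval 0.16 to 1.08, unadjusted p = 0.0128, adjusted p = 0.270), and against WT P21 library 3 alone it was 0.37 (adjusted p = 0.985). For Igfbp7 the difference was 0.62 (SE 0.24, 95% interval 0.10 to 1.15, unadjusted p = 0.0244, adjusted p = 0.303), and against WT P21 library 3 alone it was 0.39 (adjusted p = 0.986). For Irs1 it was 0.61 (SE 0.32, adjusted p = 0.415), and 0.18 against WT P21 library 3 alone. Each of the 3 differences kept its direction without WT P21 libraries 1 and 2 and was smaller there. Igfbp4 followed at 0.43 (SE 0.21, adjusted p = 0.397), or 0.30 against WT P21 library 3 alone, with an overlap between KO P21 library 2 and WT P21 library 3.

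For the other 6 genes the groups overlapped at P21. The difference was 0.18 for Igf1r, 0.27 for Insr, 0.26 for Irs2, 0.11 for Igfbp2, -0.15 for Igfbp3 and 0.07 for Igfbp5, with adjusted p-values of 0.606 to 0.966. Against WT P21 library 3 alone it was 0.15 for Igf1r, 0.46 for Insr, 0.77 for Irs2 and 0.11 for Igfbp2, and it turned to 0.07 for Igfbp3 and to -0.79 for Igfbp5. The 95% intervals were wide, from -1.20 for Igfbp3 to 1.55 for Irs2, so differences of that size could not be resolved with these libraries.

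At P1, 0 of 10 members were called, where 0% of all genes were called, and 82 genes (0.606%), none of them a member, had an unadjusted p under 0.05. The log2 differences between KO and WT ran from -0.18 for Insr to 0.14 for Igfbp3, each with an adjusted p of 1. All 10 genes overlapped between the genotypes, where 7.96% of all genes did not. For Igf1 the P1 difference was -0.05 (95% interval -0.51 to 0.41), and for Igfbp7 it was -0.07 (95% interval -0.59 to 0.46).

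**Figure D5:**
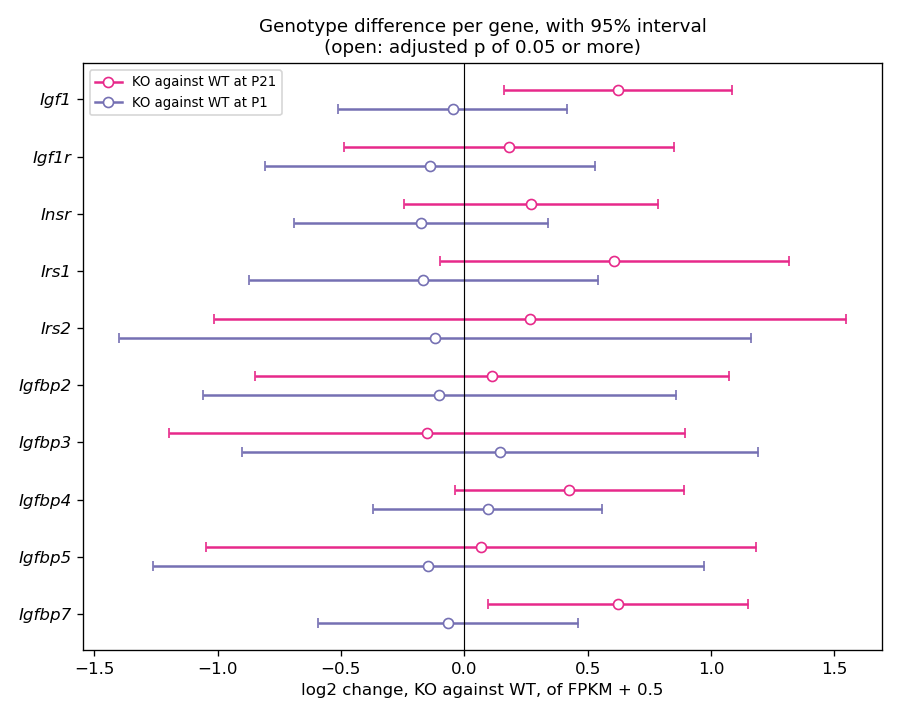
Log2 difference of FPKM + 0.5 between KO and WT (horizontal axis) for each of the 10 genes at P21 (upper marker of each pair) and P1 (lower marker), with 95% intervals from limma and open markers because no adjusted p was under 0.05. At P21 the intervals of Igf1 (0.16 to 1.08) and Igfbp7 (0.10 to 1.15) lie above 0 before adjustment, and at P1 every interval spans 0.

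The difference between the KO effects at P21 and at P1 was also tested, and 0 of 10 members passed, where 0% of all genes did. At an unadjusted p under 0.05 there was 1 of 10, Igf1, where the share of all genes was 6.94% (940 genes). The values ran from -0.30 for Igfbp3 to 0.77 for Irs1 (adjusted p = 0.690), with 0.69 for Igfbp7 (SE 0.34, adjusted p = 0.687).

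Markers of other cell types moved with these comparisons. Their sums are of FPKM as deposited, so differences between the ages depend on the scaling described above. At P21 the summed FPKM of 8 fibroblast markers was 482 to 679 in KO libraries, against 269 to 418 in WT libraries, with no overlap. Of those markers 7 of 8 had a positive difference and 0 of 8 were called, with a median of 1.09. At P1 the fibroblast sum was 394 to 715 FPKM in KO libraries and 541 to 791 FPKM in WT libraries, so the WT sums were lower at P21 than at P1 without overlap, and the KO sums overlapped. The 6 epicardial markers summed to 8.75 to 23.8 FPKM in KO P21 libraries, against 3.74 to 8.38 FPKM in WT P21 libraries. These sums were lower than at P1, which had 52.3 to 58.5 FPKM in KO libraries and 41.5 to 55.3 FPKM in WT libraries. At P21, 5 of 6 epicardial markers in KO and 6 of 6 in WT were called lower, where 13.2% and 23.3% of all genes were. No epicardial marker had a mean above 4.66 FPKM in KO P21 or 2.29 FPKM in WT P21 libraries. Some may have passed the filter on low values only through P1, and the fall of such markers cannot be read as support. The 8 endothelial markers summed to 418 to 460 FPKM in KO P21 libraries, against 221 to 269 FPKM in KO P1 libraries, and to 498 to 1364 FPKM in WT P21 libraries, against 252 to 289 FPKM in WT P1 libraries. At P21 the endothelial sums were thus lower in KO than in WT without overlap. There 1 of 8 endothelial markers had a positive difference and 0 of 8 were called, with a median of -0.32. The highest mean of a single endothelial marker was 148 FPKM in KO P21 and 500 FPKM in WT P21 libraries. Between the ages, 3 of 8 endothelial markers were called higher at P21 in each genotype, with a median of 0.20 in KO and 0.38 in WT. Of all genes tested, 11.8% were called higher in KO and 21.5% in WT. The 8 smooth muscle and pericyte markers summed to 395 to 708 FPKM in KO P21 libraries, against 218 to 342 FPKM in KO P1 libraries, and to 313 to 864 FPKM in WT P21 libraries, against 204 to 335 FPKM in WT P1 libraries. The 6 macrophage markers summed to 101 to 190 FPKM in KO P21 libraries, against 30.1 to 34.4 FPKM in KO P1 libraries, and to 117 to 294 FPKM in WT P21 libraries, against 26.7 to 48.1 FPKM in WT P1 libraries. The 8 cardiomyocyte markers were all present in every group, with sums of 24320 to 28610 FPKM in KO P21 libraries, against 9442 to 13700 FPKM in KO P1 libraries. The corresponding sums were 21740 to 37440 FPKM in WT P21 libraries, against 9353 to 12380 FPKM in WT P1 libraries. The 5 red cell markers summed to 6607 to 13670 FPKM in KO P21 libraries, against 1807 to 4174 FPKM in KO P1 libraries, and to 9373 to 39890 FPKM in WT P21 libraries, against 1572 to 3080 FPKM in WT P1 libraries. The 5 hepatocyte markers summed to 2.55 to 14.7 FPKM over all libraries, and 2 of them were at 0 in every library of each P21 group. The 6 lymphocyte and neutrophil markers summed to 5.88 to 9.83 FPKM in KO P21 libraries, against 23.3 to 36.2 FPKM in KO P1 libraries, and to 6.21 to 31.1 FPKM in WT P21 libraries, against 16.4 to 22.1 FPKM in WT P1 libraries. The part of any of these cell types in the changes of the IGF genes was not tested.

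Other genes of the system were read from lists that include all their genes whatever their values. Of 18 further ligands, receptors, binding proteins, RNA-binding regulators and proteases, 11 passed the filter on low values. With age 3 were called higher and 6 lower in KO, with a median of -1.55, and likewise 3 higher and 6 lower in WT, with a median of -1.73. Of all genes tested, 11.8% were called higher and 13.2% lower in KO, and 21.5% higher and 23.3% lower in WT. Igf2, Igfbpl1, Igf2bp1 and Igf2bp3 passed the filter on low values only through their P1 libraries. Their fall, and its part in these counts and medians, cannot be read as support. Igf2, the fetal IGF ligand, was at 0.293 ± 0.398 FPKM in KO P21 libraries, against 8.93 ± 1.80 FPKM in KO P1 libraries (log2 change -3.67, adjusted p = 5.67e-05), and at 0.179 ± 0.310 FPKM in WT P21 libraries, against 10.1 ± 1.12 FPKM in WT P1 libraries (log2 change -4.05, adjusted p = 2.37e-05; SD, n = 3 each). At P21 Igf1 was thus the ligand gene with the higher level, and at P1 Igf2 was. Igfbpl1, an IGF binding protein-like gene, fell by 2.59 in KO and fell by 3.21 in WT, and Igf2bp2, which encodes an RNA-binding protein of IGF2 messenger RNA, fell by 1.84 in KO and fell by 1.91 in WT on the log2 scale. Htra3, a secreted serine protease, rose by 1.91 in KO (adjusted p = 0.000719) and had 75.7 ± 18.4 FPKM in WT P21 libraries, against 10.97 ± 0.443 FPKM in WT P1 libraries (log2 change 2.70, adjusted p = 6.07e-05). Igfbp1, the binding protein of the liver, had 0 reads in every library.

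Of the growth hormone axis, 8 of 9 genes passed the filter, and 1 was called higher and 1 lower with age in each genotype, against the same shares of all genes. The growth hormone receptor gene Ghr had 17.9 ± 2.02 FPKM in KO P21 libraries, against 11.2 ± 1.81 FPKM in KO P1 libraries (log2 change 0.66, adjusted p = 0.0146), and 17.2 ± 1.38 FPKM in WT P21 libraries, against 11.4 ± 1.41 FPKM in WT P1 libraries (log2 change 0.58, adjusted p = 0.0153). The Ghr change was 0.01 in KO and -0.53 in WT under TPM, and was called in neither. Socs2, a feedback inhibitor of growth hormone signalling, fell by 0.74 in KO (adjusted p = 0.0268) and fell by 0.73 in WT (adjusted p = 0.0169), and its change under TPM was -1.42 in KO and -1.85 in WT.

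Downstream of the receptors, 33 of 34 genes of the adaptors and of the route through phosphoinositide 3-kinase to mTOR passed the filter. In KO 0 were called higher and 6 lower with age, with a median of -0.11, and in WT 0 were called higher and 9 lower, with a median of -0.43, beside 11.8% higher and 13.2% lower of all genes in KO and 21.5% and 23.3% in WT. Grb10, an adaptor that inhibits Insr and Igf1r, had 14.2 ± 1.30 FPKM in KO P21 libraries, against 55.4 ± 9.58 FPKM in KO P1 libraries (log2 change -1.91, adjusted p = 0.000138), and 12.1 ± 2.47 FPKM in WT P21 libraries, against 69.3 ± 14.9 FPKM in WT P1 libraries (log2 change -2.47, adjusted p = 2.27e-05). Akt1, the kinase through which the route promotes growth, fell by 1.61 in KO and fell by 1.82 in WT, and Shc1, an adaptor that couples the receptors to Ras, fell by 0.85 in KO and fell by 1.35 in WT. Gab1, a docking protein, fell by 0.87 in KO (adjusted p = 0.0194) and fell by 1.04 in WT (adjusted p = 0.00454). Pdpk1, the kinase that activates Akt, fell by 0.55 in KO (adjusted p = 0.0293) and fell by 0.97 in WT (adjusted p = 0.000942). Without WT P21 libraries 1 and 2, the WT age changes given above for genes named from these lists kept their direction. They were 0.70 for Ghr and -0.99 for Gab1 there. The WT age change of Gsk3a, named below, went from -0.67 (adjusted p = 0.0388) to -0.27, and that of Akt2 turned from 0.07 to -0.11. Between KO and WT, 0 genes of these 3 lists were called at either age. The values nearest to the threshold at P21 were -0.75 for Htra3 (adjusted p = 0.289), -0.35 for Akt2 (adjusted p = 0.367) and 0.49 for Gsk3a (adjusted p = 0.384). Against WT P21 library 3 alone they were -0.32 for Htra3, -0.18 for Akt2 and 0.09 for Gsk3a, and Akt2 turned to 0.01 under TPM and to 0.07 without mitochondrial and top genes.

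Within the groups, some of the members varied together from library to library. All genes of a library share its scaling factor. The deviations of Irs2 from its group means had a Pearson r of 0.90 with those of Insr and 0.89 with those of Igfbp3 over 12 libraries. These values rest in part on WT P21 libraries 1 and 2, whose Igfbp3 deviations were 1.35 and -1.13 on the log2 scale. Over the other 10 libraries r was 0.69 for Irs2 with Insr and 0.64 for Irs2 with Igfbp3. WT P21 library 3 entered there by its deviation from the mean of all 3 WT P21 libraries. The r values over 10 libraries are thus not free of the 2 left out. Igfbp4 and Igfbp5 had an r of 0.89 over 12 libraries and of 0.91 over those 10. Igfbp7 and Insr deviated in opposite directions, with an r of -0.67 over 12 libraries and of -0.93 over those 10.

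The genes whose log2 levels over the 12 libraries were most like those of a member were taken as the 3 with the highest Pearson r. For Igf1 they were Gca (0.96), Bmpr1a (0.96) and Vav3 (0.95), and for Igf1r they were Unc13b (0.99), Amotl2 (0.98) and Ppp1r9a (0.98). For Irs2 they were Pim1 (0.97), Amotl2 (0.96) and Ofd1 (0.95), and Amotl2 thus stood in the list of both Igf1r and Irs2. For Igfbp3 they were Sirt7 (0.98), Clec1b (0.97) and Bcl2l1 (0.96), and for Igfbp7 they were Trim72 (0.99), Ank (0.98) and Pcp4l1 (0.97). All genes share the age and the scaling factor of each library. The deviations from the group means had an r of 0.80 for Igf1 with Gca, 0.97 for Igf1r with Unc13b, 0.98 for Igfbp3 with Sirt7 and 0.81 for Igfbp7 with Trim72. The likest genes of Igfbp5 were Raph1 (0.98), Cacna2d2 (0.97) and Scarf2 (0.97), and those of Insr had the lowest values, with Kdm4c at 0.90.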

How the data were processed

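The 12 mouse heart libraries, 3 per group, came from total RNA (miRNeasy micro kit) and the Ovation Ultralow V2 kit, per the labels' protocols. The authors deposited FPKM values per gene. The submitters' processing notes name FastQC, TopHat2 2.0.13, Subread, featureCounts and edgeR, and the builds GRCh38, mm10 and GRCm39 without a role. No source used here states whether counting used strand, so reads of overlapping or antisense genes cannot be told apart.

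FPKM times gene length gave whole multiples of 1 step in each library, to within 0.05 of a read, in 100% of nonzero values. These steps gave the totals of 9.67 to 15.9 M (megareads) and the authors' further scaling factor of 0.605 to 1.17 per library. Genes reaching an FPKM of 1 in 3 or more libraries were tested with limma 3.58.1 in R 4.3.3, on log2(FPKM + 0.5), with a mean per group over all 12 libraries, a trend and robust moderation. Unless an alternative is named, adjusted p-values are from this test, Benjamini-Hochberg adjusted over 13537 genes, at a threshold of 0.05. Those given under an alternative are from its own fit, adjusted over the genes tested in it (16381 under TPM). Groups came from the sample titles and columns from the library names. Promoters came from RefSeq, and figures were drawn with matplotlib 3.10.9.

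The members and lists were chosen with earlier results of these data known. Named beside the members were Csrp3, up to 4 genes per list with the smallest adjusted p in the age comparisons and at P21, and the 3 genes most like a member. Igfbp1 and the promoter motifs were chosen after values were seen. Alternatives were pseudocounts, filters, scalings, other model settings, a replicate block, voom on recovered reads, and left-out libraries.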

Additional observations from a re-analysis of the deposited data

How the results depend on the processing

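Between KO and WT, 0 of 10 members were called at P21, at P1 and for the difference of the KO effects in every alternative run. The numbers of genes called over the whole table moved more. At P1 the number was 3 with library weights, 1 with only the compared groups, with a pseudocount of 0.1, under TPM, without mitochondrial and top genes and without WT P21 libraries 1 and 2, and 0 to 1 with 1 library left out. At P21, beside 9, it was 5 with the FPKM minimum of 5, 21 with no filter, 19 without the trend, 0 with only the compared groups, 14 with a pseudocount of 1, 15 with quantile normalization, 14 under TPM, 1 with voom, 2 without WT P21 libraries 1 and 2, and 4 to 1814 with 1 library left out. For age in KO, beside 3388, it was 6773 with library weights, 5965 under TPM and 2085 to 4211 with 1 library left out. For age in WT, beside 6077, it was 4009 with the FPKM minimum of 5, 10332 under TPM and 3001 without WT P21 libraries 1 and 2. For the difference of the KO effects it was 0 to 293 with 1 library left out. Members called with age numbered 3 of the 6 tested in KO and in WT with the FPKM minimum of 5, and 2 to 6 in KO with 1 library left out.

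Some directions turned, among them that of a call, the age change of Igfbp7 in WT, which was 1.12 as deposited; the turned values themselves were not called. With library weights Igfbp7 was 0.0553 at P1 and Irs2 was -0.53 at P21. Igfbp2 at P21 was -0.12 with quantile normalization. Under TPM and without mitochondrial and top genes, Igfbp3 was 0.22 and 0.27 at P21, -0.17 and -0.0259 with age in WT, and 0.17 and 0.21 for the difference of the KO effects. Under TPM, age changes were -0.0013 for Igfbp3 in KO, -0.0263 for Igfbp7 in WT and -0.61 for Insr in KO, which was -0.42 without mitochondrial and top genes. Without WT P21 libraries 1 and 2, Igfbp3 was 0.0701 and Igfbp5 -0.79 at P21. With 1 library left out, P1 values ran from -0.17 to 0.0166 for Igf1, -0.0365 to 0.26 for Igfbp3 and -0.18 to 0.10 for Igfbp7. At P21 they ran from -0.10 to 0.45 for Igf1r, -0.28 to 1.07 for Irs2, -0.72 to 0.53 for Igfbp3 and -0.55 to 0.64 for Igfbp5. Age changes in KO ran from -0.0310 to 0.18 for Insr and from -0.39 to 0.0050 for Igfbp4, and the difference of the KO effects of Igfbp3 ran from -0.86 to 0.38. The cause of these shifts was not tested.

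The labels do not say whether the replicate numbers pair the samples. Deviations of same-numbered libraries had an r of -0.30 to 0.49, over 0.1 in 6 of 18 pairs, and 9 of 36 checks put a library closest to its own number. Whether same-numbered samples share a litter or a batch cannot be told from these values. With the replicate number as a block, 5 members were called with age in KO and 7 in WT, and 0 between genotypes, with 7 genes called in all at P21, 0 at P1, 3249 for age in KO and 5995 for age in WT.

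Depth limits the lowest levels: Irs1 had 0 to 76 reads per library at P21 and Igfbp2 0 to 3, so a difference between KO and WT in Igfbp2 was not detectable at this depth at P21.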
